A study of Mus musculus with 9 samples.

Results

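The chemokine system of T15 cells, as described here, comprised 60 of the 35288 genes in the count table, chosen as protein-coding genes whose symbol begins with Ccl, Cxcl, Cx3cl, Xcl, Ccr, Cxcr, Cx3cr or Xcr directly followed by a number. Of these, 42 encode chemokines and 18 encode chemokine receptors. T15 is a murine cell line from a Smarcb1-negative peripheral T-cell lymphoma that arose in mice with T-cell-restricted (CD4-Cre) loss of Smarcb1, a core subunit of the SWI/SNF chromatin remodelling complex. RNA of 9 libraries was sequenced, 3 of control T15 cells, 3 of T15 cells given SAHA and 3 of T15 cells with re-expressed Smarcb1 (Smarcb1-RE). SAHA (vorinostat), an inhibitor of histone deacetylases, was added at 1 µM, repeatedly within 72 h. Smarcb1-RE cells carried a lentiviral, doxycycline-inducible Smarcb1 cDNA, were selected with G418 and received doxycycline at 0.5 µg/µl for 72 h. The labels name both a vehicle and a control plasmid but do not say which of these, if any, the 3 control libraries had received. The study's text on RNA sequencing speaks of untreated control cells, while its scheme of re-expression names an empty vector as control, with doxycycline. Effects of transduction, selection, doxycycline and Smarcb1 therefore cannot be told apart. The study names the 3 libraries of a group as biological replicates of this 1 cell line. Neither it nor the labels say how their cultures were separated or whether Smarcb1-RE libraries came from separate clones, so p-values measure only the spread between libraries of the line.

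Chemokines are small secreted proteins that attract leukocytes along a concentration gradient. They bind receptors with 7 membrane-spanning helices that signal through inhibitory G proteins to phosphoinositide 3-kinase, phospholipase C and the Rac and Rap1 GTPases, and are then phosphorylated and internalized through arrestins. In T cells, Ccr7 and Cxcr4 guide naive cells to lymph nodes and bone marrow, Cxcr3 marks effector cells that enter inflamed tissue, Ccr9 leads to the small intestine and Cxcr5 to B-cell follicles. Activated CD8+ T cells themselves secrete Ccl3, Ccl4 and Ccl5.

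The estimated counts summed to between 20900477 and 24941494 per library. Control replicate 1 stood further from its group than any other library, with chi-square values per gene of 13.4 and 15.0 against the other controls and of 2.08 to 4.69 within the other groups. Smarcb1 had 2, 5 and 8 counts in control, 7, 13 and 3 under SAHA and 151, 147 and 142 in Smarcb1-RE. Of 13 T-cell markers, 9 were expressed above the filter on low counts, among them Cd3e at 395 ± 19.0 CPM (SD, n = 3) and Cd8a at 690 ± 3.85 CPM in control. Cd4 had no count in any library, and Cd2, Cd5 and Thy1 had at most 6. In SAHA the summed level of 11 myeloid markers was 5.93 to 7.49 CPM, against 2.11 to 2.67 CPM in control and 1.90 to 2.03 CPM in Smarcb1-RE. Nearly all of the SAHA sum was Cd68. Itgam and Lyz2, neither of them tested, went the other way in SAHA. Itgam was at 0.433 CPM in control, 0.0291 CPM in SAHA and 0.101 CPM in Smarcb1-RE, and Lyz2 at 0.112, 0 and 0.0284 CPM. Cd14, Csf1r, Fcgr1, S100a8 and S100a9 had at most 1 count in each library. The 4 B-cell and 6 fibroblast markers summed to 7.25 to 7.96 and 66.4 to 68.6 CPM in Smarcb1-RE, against at most 1.86 and 8.88 CPM elsewhere. Pax5, Ms4a1 and Pdgfra carried these sums and were higher in Smarcb1-RE, as was Col1a1. Pax5 was also higher in SAHA, at 0.766 CPM against 0.0982 CPM in control. Col1a2, Pdgfrb and Cd79a, none of them tested, went the other way in Smarcb1-RE. From control to Smarcb1-RE, Col1a2 went from 0.113 to 0.029 CPM, Pdgfrb from 0.056 to 0 CPM and Cd79a from 0.112 to 0.0579 CPM. Cd79b, Col3a1 and Dcn had at most 2 counts in a library. The 3 NK-cell markers summed to 1.504 to 1.83 CPM in Smarcb1-RE, nearly all of it Eomes, and to at most 0.468 CPM elsewhere, and the 4 endothelial markers, nearly all Pecam1, to 106 to 154 CPM over all libraries. The part of these markers in the results below was not tested, and in bulk RNA fewer cells of a type and less RNA per cell cannot be told apart.

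Most of the chemokine system had few or no counts in T15. In total 16 members had enough counts to be tested, 7 chemokines and 9 receptors. Another 17 had no count in any library, 18 had at most 3 counts in every library and 9 reached higher counts without passing the filter. A count of 3, the least taken here to show a level, corresponded to 0.123 to 0.133 CPM in a library (CPM, counts scaled by TMM to a library of 1000000), and this floor covers counting error only. The 16 chemokines without a count included Ccl17 and Ccl22, the ligands of Ccr4, as well as Ccl1, Ccl8, Ccl11, Ccl12, Ccl24, Ccl26, Ccl28, Cxcl2, Cxcl14 and Ccl21a, with further copies from unplaced scaffolds (Ccl19, Ccl21a and Ccl21b) and Ccl27b. Ccr8 was the receptor without a count. Ccl19, Ccl21a and Ccl27b share 58.8%, 80.6% and 100% of the 31-base words of their transcripts with other genes, so their reads could have been assigned elsewhere. Those with 1 to 3 counts were Ccl2, Ccl6, Ccl7, Ccl19, Ccl21c, Cxcl1, Cxcl3, Cxcl5, Cxcl9, Cxcl12, Cxcl13, Cxcl16, Cxcl17 and Cx3cl1, and the receptors Ccr6, Ccr1l1, Cxcr1 and Cx3cr1. The chemokines with more counts but no test were Ccl9 with at most 7, Ccl20 with 3, 3 and 4 in control and at most 1 elsewhere, Cxcl15 with at most 4, Xcl1 with 5, 5 and 2 in Smarcb1-RE and at most 1 elsewhere, and a copy of Ccl27 on scaffold JH584294.1 with 60, 16 and 0 in Smarcb1-RE and none elsewhere. Among the receptors these were Ccr1 and Ccr4 with at most 4 and 5 counts, Cxcr6 with 3, 6 and 2 in Smarcb1-RE and at most 1 elsewhere, and Ccr3 with 8, 8 and 19 in control, 5, 4 and 8 under SAHA and 3, 2 and 4 in Smarcb1-RE.

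Compared per kilobase of exon, the expressed chemokines and receptors spanned a wide range of levels. Ccl5 was first among the chemokines with a mean of 436 CPM per kb over the 9 libraries, ahead of Cxcl10 with 34.5 and Ccl3 with 11.7. Among the receptors, Cxcr5 was at 62.8 CPM per kb, Ccr7 at 25.6, Cxcr3 at 10.96 and Ccr9 at 6.34, while Cxcr2, Cxcr4, Ccr2, Ccr10 and Xcr1 averaged 0.106 to 1.38 CPM per kb. Summed over all chemokines the level was 254.5 ± 12.1 CPM per kb in control, 624 ± 42.0 in SAHA and 593 ± 37.5 in Smarcb1-RE (SD, n = 3). Ccl5 made up 85.1% of this sum in control, 84.2% in SAHA and 95.3% in Smarcb1-RE. The share of Cxcl10 was 11.04% in control, 10.97% in SAHA and 1.17% in Smarcb1-RE.

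**Figure D1:**
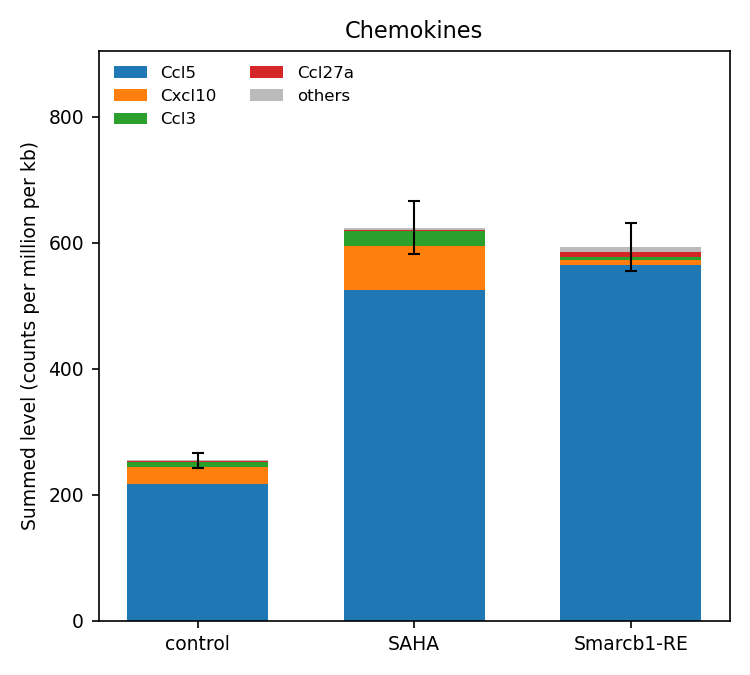
Stacked bars give the mean level of each gene in CPM per kb of exon, summed over all chemokines in control, SAHA and Smarcb1-RE, with the SD of the sum over 3 libraries as error bars. Ccl5 fills most of each bar, and the Cxcl10 share is 11.04% in control, 10.97% in SAHA and 1.17% in Smarcb1-RE.

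In SAHA 10 of the 16 tested members were higher than in control and none lower, at an adjusted p below 0.05 in edgeR's quasi-likelihood test over 13697 genes. The called share of the members was 62.5%, against 66.9% of all genes tested. Among all genes 32.6% were called higher and 34.3% lower. The median log2 fold change of the members was 0.63, that of all genes 0.00. No overlap between SAHA and control libraries was seen for 11 members and for 68.7% of all genes. A rise of at least 1 on the log2 scale was called for 6 members, Ccl3, Ccl4, Ccl5, Cxcl10, Ccl27 on scaffold JH584293.1 and Cxcr4, and for 9.85% of all genes. In Smarcb1-RE 7 members were higher and 6 lower than in control, a called share of 81.2% against 77.8% of all genes, with 39.2% of all genes higher and 38.6% lower. The median of the members was -0.01, or 0.06 with Ccl4, which was under the floor in Smarcb1-RE, set at no change, and that of all genes was 0.01. Changes of at least 1 were upward for 5 members (16.9% of all genes) and downward for Cxcl10, Ccr7 and Ccr10 (6.78% of all genes). The libraries of Smarcb1-RE and control did not overlap for 13 members and for 79.5% of all genes. Ccl4 passed the filter only through SAHA and Xcr1 only with Smarcb1-RE, where each was highest. Ccl27 on JH584293.1, with 0, 0 and 14 counts in control, passed only through the treated groups, where it was higher. The numbers of members called therefore describe the members that were expressed and not the family.

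Set side by side, the comparisons with control, which share their control libraries, sorted the tested members into distinct patterns. Ccl5, Ccl27a and Ccl27 on JH584293.1 were higher in both, as were 19.2% of all genes. In Smarcb1-RE the libraries of Ccl27 on JH584293.1 overlapped control. Reads could have been split between Ccl27a and this copy. With the copies of Ccl27a summed, a grouping chosen after their values were seen, 9 members were higher in SAHA and 6 in Smarcb1-RE. Ccl3, Cxcl10, Ccr7, Cxcr3 and Cxcr4 were higher in SAHA and lower in Smarcb1-RE, as were 7.48% of all genes. All 5 differed between Smarcb1-RE and SAHA in the direct comparison, which largely follows from their opposite directions against control. In that comparison 5 members were higher and 8 lower in Smarcb1-RE. There 74.6% of all genes were called, 37.8% higher and 36.8% lower, and 12 members and 80.0% of all genes had libraries that did not overlap. Ccl4 and Ccr2 passed the test in SAHA alone, and Ccl25, Cxcr2, Cxcr5, Xcr1 and Ccr10 in Smarcb1-RE alone. Of these 7, all but Xcr1 also passed in the direct comparison. Ccr9 was called against control in neither. No member was lower in both or lower in SAHA and higher in Smarcb1-RE, as were 21.5% and 6.73% of all genes.

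**Figure D2:**
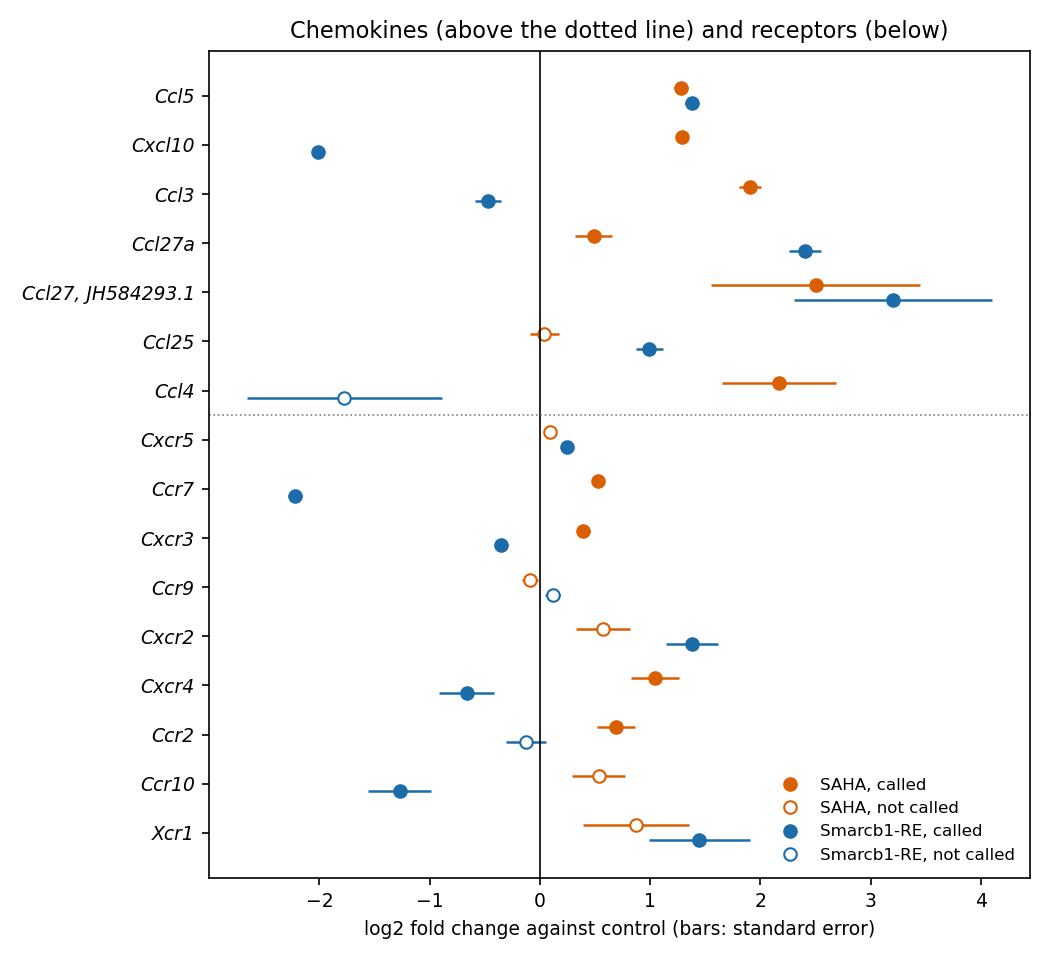
Points give the log2 fold change against control of the 16 tested members in SAHA (orange) and Smarcb1-RE (blue), bars the standard error, filled points adjusted p below 0.05. Both points of Ccl5 lie right of 0, while Cxcl10 and Ccr7 lie at 1.29 and 0.53 in SAHA and at -2.01 and -2.22 in Smarcb1-RE.

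Ccl5 (RANTES, chr11:83525778-83530518, GRCm38, minus strand), an attractant of effector T cells and monocytes, was the most abundant chemokine in each library. It stood at 219, 209 and 196 CPM in control, at 464, 512 and 538 CPM in SAHA and at 569, 505 and 553 CPM in Smarcb1-RE. Neither treated group overlapped the controls, while the treated groups overlapped each other. The rise was 2.43-fold in SAHA (log2 fold change 1.28, standard error 0.06, adjusted p = 6.9e-09) and 2.61-fold in Smarcb1-RE (1.38, standard error 0.06, adjusted p = 8.34e-10). Smarcb1-RE and SAHA differed by 0.10 on the log2 scale (standard error 0.06, adjusted p = 0.145). When libraries were scaled by their totals only, this difference was 0.26 (adjusted p = 0.00127). That scaling moved the all-gene median in Smarcb1-RE against SAHA from 0.02 to 0.18.

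Ccl3 and Ccl4 (MIP-1α and MIP-1β), which attract effector T cells and lie in the same cluster as Ccl5, were much less abundant. Ccl3 (chr11:83647844-83649355) was at 5.48, 4.69 and 4.60 CPM in control and rose to 17.1, 20.2 and 18.1 CPM in SAHA, 3.75-fold (log2 fold change 1.91, standard error 0.10, adjusted p = 8.65e-09). In Smarcb1-RE it fell to 3.62, 3.72 and 3.32 CPM (-0.47, standard error 0.12, adjusted p = 0.00253). The 3 groups did not overlap. Ccl4 was near the limit of detection with 1, 5 and 2 counts in control, 14, 11 and 11 under SAHA and 1, 0 and 1 in Smarcb1-RE. Its rise in SAHA was 2.17 on the log2 scale (standard error 0.52, adjusted p = 0.00242). The size of this rise is uncertain, since the control mean of 0.112 CPM lay under the floor of 3 counts per library. Ccl4 passed the filter only through SAHA, where it was highest. Of the 8 control counts 5 came from control replicate 2, without which SAHA was at least 4.16-fold above the floor of the controls. Relative to SAHA it was at least 4.02-fold lower in Smarcb1-RE (adjusted p = 0.000147), against a floor of 3 counts per library. The difference between Smarcb1-RE and control was not called (adjusted p = 0.0837), but was without control replicate 1 (adjusted p = 0.0457). The remaining genes of the cluster, which spans chr11:83525778-83664683, were Ccl9 and Ccl6, neither of them tested. A separate cluster on this chromosome (chr11:82035571-82305690) with the monocyte attractants Ccl2, Ccl7, Ccl8 and Ccl12, and with Ccl1 and Ccl11, had no tested gene.

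Cxcl10 (IP-10, chr5:92346638-92348889, minus strand), an interferon-inducible ligand of Cxcr3, showed the widest separation of the 3 groups among the abundant chemokines. It was at 63.0, 62.3 and 64.1 CPM in control, at 147, 157 and 158 CPM in SAHA and at 16.1, 15.0 and 15.8 CPM in Smarcb1-RE. In SAHA it was 2.44-fold higher (log2 fold change 1.29, standard error 0.04, adjusted p = 5.2e-10) and it was 4.03-fold lower than control in Smarcb1-RE (-2.01, standard error 0.05, adjusted p = 7.87e-12). Between Smarcb1-RE and SAHA the difference was 9.84-fold (adjusted p = 1.01e-13). Of the other Cxcr3 ligands, Cxcl9, its neighbour, had at most 3 counts in a library, and Cxcl11, which is not annotated as protein-coding in this release, also had at most 3. Ifng, whose product induces Cxcl10, was at 23.4 ± 1.998 CPM in control, 175 ± 8.80 CPM in SAHA and 25.1 ± 1.33 CPM in Smarcb1-RE. Its part in the Cxcl10 levels was not tested. Exons of Cxcl10 overlap Art3 on the opposite strand. Art3 changed by 0.05 on the log2 scale in SAHA (adjusted p = 0.52) and fell by 2.62 in Smarcb1-RE (adjusted p = 3.98e-11). The library kit keeps strand, but whether the counting used it is not given in the sources used here, and without strand the reads of such partners cannot be told apart.

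The 250 bases before the start of Cxcl10 and Ccl3 are printed because both genes were higher in SAHA and lower in Smarcb1-RE. They are RefSeq sequences of build GRCm38.p6 at chr5:92348890-92349139 and chr11:83649379-83649628, read 5′ to 3′ on the minus strand, with capitals marking matches to searched motifs.
Cxcl10: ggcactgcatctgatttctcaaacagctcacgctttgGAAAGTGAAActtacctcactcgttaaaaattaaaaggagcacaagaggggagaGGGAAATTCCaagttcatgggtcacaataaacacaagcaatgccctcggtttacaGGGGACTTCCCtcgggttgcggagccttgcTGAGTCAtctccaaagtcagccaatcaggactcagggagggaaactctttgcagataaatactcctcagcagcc
Ccl3: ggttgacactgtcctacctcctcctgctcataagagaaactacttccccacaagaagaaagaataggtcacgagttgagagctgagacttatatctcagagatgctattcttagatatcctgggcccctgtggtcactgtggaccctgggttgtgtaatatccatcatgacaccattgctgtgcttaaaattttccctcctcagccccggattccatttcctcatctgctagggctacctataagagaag
The motifs, searched on both strands, were an interferon-stimulated response element (GAAA, any 2 bases, then GAAA again), an NF-κB element (GGG, any 5 bases, then CC), a gamma-activated site (TTCNNNGAA) and an AP-1 site (TGANTCA). The Cxcl10 window held GAAAGTGAAA from -213 to -204 relative to the start, GGGAAATTCC from -159 to -150, the overlapping GGGGACTTCC and GGGACTTCCC between -104 and -94, and TGAGTCA from -74 to -68. The Ccl3 window held none of the 4. Over 32851 windows of this length, 2.98% held the interferon element, 45.8% the NF-κB letters, 7.02% the gamma-activated site and 6.75% the AP-1 site. Windows of the other members with this pattern were read for Cxcr3, with 1 NF-κB match, and Cxcr4, with none of the 4. These matches describe letters, not bound sites.

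Ccl27a and Ccl25, chemokines made constitutively by skin and by small intestine and thymus, rose in Smarcb1-RE. Ccl27a (chr4:41769467-41774247), the ligand of Ccr10, was at 4.76, 4.35 and 2.88 CPM in control, 5.45, 6.67 and 4.69 CPM in SAHA and 21.6, 21.3 and 20.6 CPM in Smarcb1-RE. Smarcb1-RE lay above all other libraries, 5.30-fold above control (log2 fold change 2.41, standard error 0.15, adjusted p = 1.14e-08), while SAHA and control overlapped (0.49, standard error 0.17, adjusted p = 0.0212). That SAHA call was lost without control replicate 3 (0.30, adjusted p = 0.0811) or SAHA replicate 2 (0.34, adjusted p = 0.107). Ccl27a shares 57.0% of its 31-base words with other genes, so its reads could have been split among copies. The copy on JH584293.1 had 0, 0 and 14 counts in control, 28, 14 and 36 under SAHA and 32, 13 and 83 in Smarcb1-RE. That copy passed the filter on low counts only through the treated groups. Its call in SAHA (2.501, standard error 0.95, adjusted p = 0.0332) was lost without control replicate 1 or 2 or SAHA replicate 1 or 3 (1.93 to 2.44) and in DESeq2 (2.55, adjusted p = 0.126), and its value in Smarcb1-RE (3.20, standard error 0.90, adjusted p = 0.00569) was 2.29 without Smarcb1-RE replicate 3. Without control replicate 3, which held all control counts, SAHA and Smarcb1-RE were at least 8.86-fold and 14.5-fold above the floor of the controls. With Ccl27a, Ccl27b and 4 similar genes taken as 1, a grouping chosen after their values were seen, the level was 4.51 ± 0.547 CPM in control, 7.38 ± 0.597 CPM in SAHA and 26.4 ± 1.67 CPM in Smarcb1-RE. The log2 fold changes were then 0.71 (adjusted p = 8.18e-05) and 2.54 (adjusted p = 1.61e-10). Il11ra1, which overlaps Ccl27a on the opposite strand, rose by 2.28 in Smarcb1-RE, and the median log2 fold change in Smarcb1-RE was 0.37 over 778 genes of chromosome 4 and -0.02 over 11266 genes of the other autosomes. The part of either in the Ccl27a rise was not tested.

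Ccl25, the ligand of Ccr9, was at 8.46, 6.13 and 6.99 CPM in control and at 8.40, 7.64 and 6.16 CPM in SAHA, which overlapped (log2 fold change 0.04, standard error 0.13, adjusted p = 0.798). In Smarcb1-RE it rose 1.99-fold to 14.5, 14.6 and 13.8 CPM (0.99, standard error 0.12, adjusted p = 8.85e-06), above all other libraries. Elavl1, its overlapping partner on the opposite strand, fell by 0.71 in Smarcb1-RE.

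**Figure D3:**
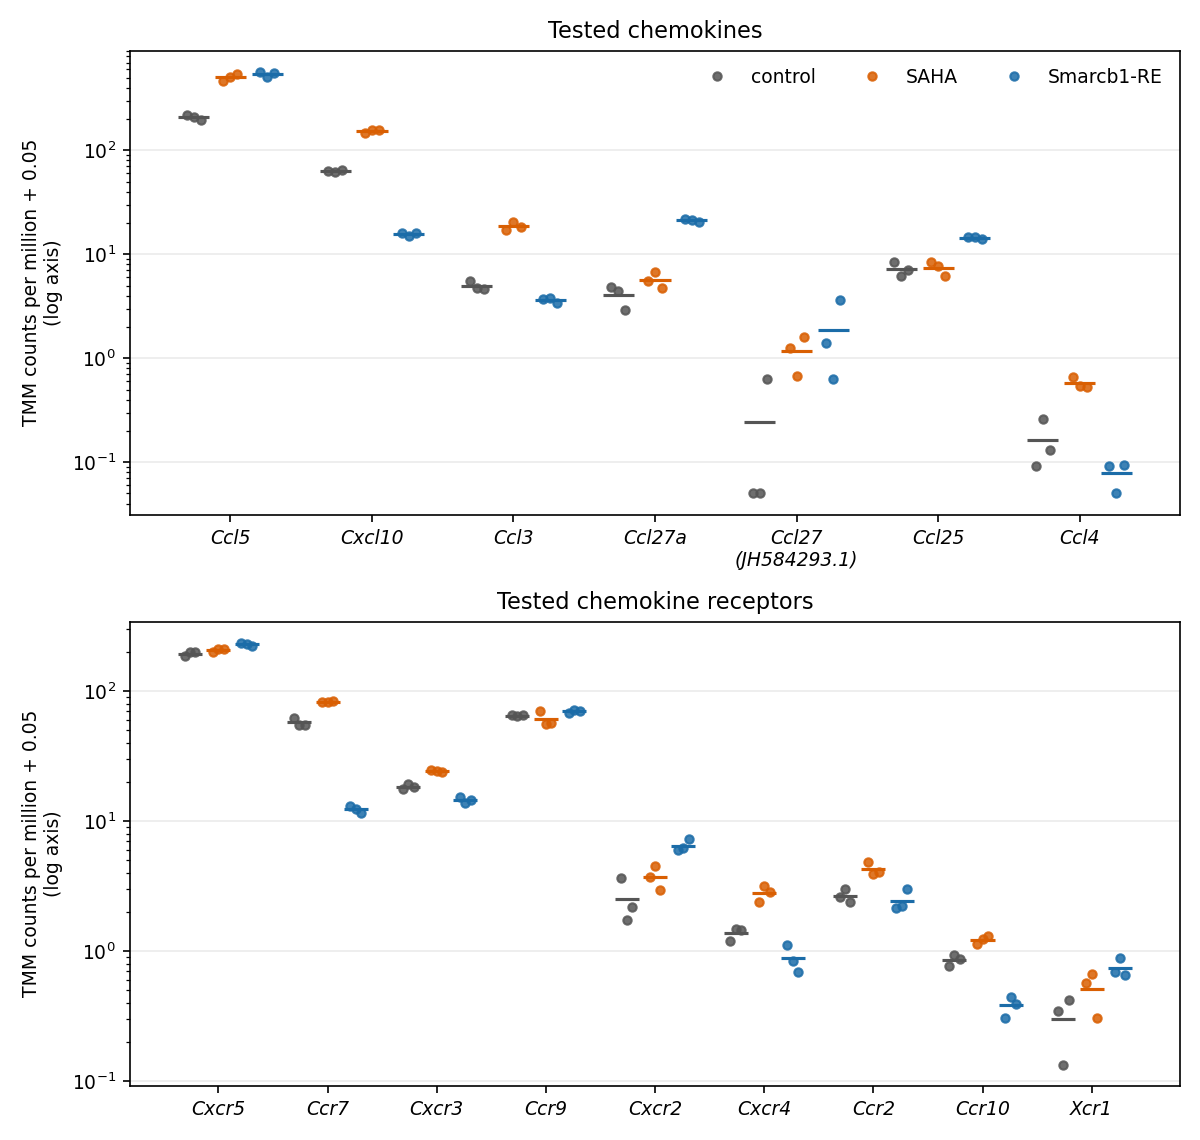
Each point is the CPM (TMM-scaled) of a library plus 0.05, on a log axis, for the 7 tested chemokines (top) and 9 tested receptors (bottom), with the mean of 3 libraries as a line. Points of Cxcl10 and Ccr7 form 3 separate groups with SAHA highest and Smarcb1-RE lowest, while those of Ccl27 on JH584293.1 and Xcr1 scatter at low levels.

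Ccr7 (chr11:99144196-99155077), the lymph node homing receptor for Ccl19 and Ccl21, had the largest fall among the receptors in Smarcb1-RE. It was at 61.6, 55.0 and 55.0 CPM in control, 81.6, 82.4 and 83.6 CPM in SAHA and 13.0, 12.3 and 11.5 CPM in Smarcb1-RE, again in 3 separate groups. In SAHA it was 1.44-fold higher (log2 fold change 0.53, standard error 0.05, adjusted p = 1.73e-06), and it was 4.65-fold lower than control in Smarcb1-RE (-2.22, standard error 0.06, adjusted p = 1.72e-11). Cxcr4, the receptor of the bone marrow chemokine Cxcl12, followed the same order at low levels, with 1.15, 1.44 and 1.40 CPM in control, 2.34, 3.09 and 2.80 CPM in SAHA and 1.07, 0.796 and 0.646 CPM in Smarcb1-RE. Its rise in SAHA was 1.04 on the log2 scale (standard error 0.22, adjusted p = 0.00109). Its fall in Smarcb1-RE (-0.66, standard error 0.25, adjusted p = 0.0274) was not called without control replicate 2 or 3 or Smarcb1-RE replicate 2 or 3 (adjusted p = 0.0624 to 0.105), nor by DESeq2 (adjusted p = 0.0607).

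Cxcr3, the receptor of Cxcl9 and Cxcl10 on effector T cells, moved in the same directions by less. It was at 17.6 to 19.1 CPM in control, 23.8 to 24.5 CPM in SAHA (log2 fold change 0.39, standard error 0.06, adjusted p = 6.82e-05) and 13.6 to 15.1 CPM in Smarcb1-RE (-0.35, standard error 0.06, adjusted p = 0.000192). Ccr10, the receptor of the skin chemokine Ccl27, was at 0.723, 0.887 and 0.822 CPM in control and fell to 0.256, 0.398 and 0.345 CPM in Smarcb1-RE (-1.27, standard error 0.29, adjusted p = 0.00136). In SAHA it was at 1.08, 1.19 and 1.25 CPM, above each control library but not called (0.53, standard error 0.24, adjusted p = 0.0698).

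Cxcr5 (chr9:44511787-44561877), the receptor of the follicular chemokine Cxcl13, had the highest level per kb of all receptors and changed little. It was at 184, 198 and 197 CPM in control, 201, 209 and 209 CPM in SAHA and 234, 230.2 and 222 CPM in Smarcb1-RE. Its rise in Smarcb1-RE was 1.18-fold (log2 fold change 0.24, standard error 0.04, adjusted p = 0.000153), while in SAHA it was not called (0.09, standard error 0.04, adjusted p = 0.0625). DESeq2 called it in SAHA at 0.10 (adjusted p = 0.0479). Bcl9l, which overlaps Cxcr5 on the opposite strand, fell by 1.02 in Smarcb1-RE. Ccr9, the gut homing receptor, was at 64.0 to 65.03 CPM in control, 55.3 to 69.6 CPM in SAHA and 68.0 to 71.7 CPM in Smarcb1-RE, with log2 fold changes of -0.09 (adjusted p = 0.272) and 0.12 (adjusted p = 0.153). Without SAHA replicate 1 it was called lower in SAHA (-0.21, adjusted p = 0.00183). In Smarcb1-RE it was called higher with library totals only (0.27, adjusted p = 0.0037), with at least 10 counts in each library (0.17, adjusted p = 0.0361), in a separate fit (0.11, adjusted p = 0.0366) and without SAHA replicate 1 (0.10, adjusted p = 0.0355). Smarcb1-RE and SAHA differed by 0.21 (adjusted p = 0.0184), a call lost without SAHA replicate 2 or 3 or Smarcb1-RE replicate 2.

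Ccr2, the receptor of the monocyte attractant Ccl2, was at 2.34 to 2.96 CPM in control, rose to 3.89 to 4.76 CPM in SAHA (log2 fold change 0.69, standard error 0.17, adjusted p = 0.0035) and was at 2.09 to 2.93 CPM in Smarcb1-RE (-0.13, standard error 0.18, adjusted p = 0.541). Cxcr2, best known as the neutrophil receptor of Cxcl1 and Cxcl2, rose in Smarcb1-RE. It was at 3.61, 1.69 and 2.14 CPM in control, 3.68, 4.46 and 2.93 CPM in SAHA and 5.97, 6.15 and 7.20 CPM in Smarcb1-RE, which lay above all other libraries (log2 fold change 1.38, standard error 0.24, adjusted p = 0.000151). SAHA and control overlapped (0.57, standard error 0.25, adjusted p = 0.0563). Without control replicate 1, the highest control library, the SAHA difference was 0.94 (adjusted p = 0.00142). It was also called by DESeq2 (0.58, adjusted p = 0.0366), without a filter (0.56, adjusted p = 0.0461), with at least 10 counts in each library (0.61, adjusted p = 0.0331) and without SAHA replicate 3 (0.71, adjusted p = 0.0325). Xcr1, the receptor of Xcl1, had 7, 2 and 9 counts in control, 12, 14 and 6 under SAHA and 15, 19 and 14 in Smarcb1-RE. Its rise in Smarcb1-RE was 1.44 (standard error 0.46, adjusted p = 0.0113), and 1.03 without control replicate 2 (adjusted p = 0.0501). Without the Smarcb1-RE libraries Xcr1 did not pass the filter on low counts.

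For some receptors a ligand was expressed in the same cells. Cxcl10 was above Cxcr3 in control (28.0 against 10.6 CPM per kb) and SAHA (68.4 against 13.9), but not in Smarcb1-RE (6.95 against 8.33). The order in Smarcb1-RE depends on the exon lengths, since in CPM Cxcl10 was at 15.6 and Cxcr3 at 14.4 there. The level of Ccl27a relative to Ccr10 was 1.68 against 0.470 CPM per kb in control and 8.90 against 0.193 in Smarcb1-RE, where the ligand rose and the receptor fell. Ccl25 was below Ccr9 in each group, with 0.966, 0.994 and 1.92 against 6.30, 5.91 and 6.82 CPM per kb. For Cxcr5, Ccr7 and Cxcr4, the ligands Cxcl13, Ccl19, Ccl21a and Cxcl12 had at most 1 count in any library. Ccl19 and Ccl21a share 58.8% and 80.6% of their 31-base words with other genes, to which their reads could have been assigned. Levels per kb depend on the exon length assigned to each gene, and no test was made across genes.

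**Figure D4:**
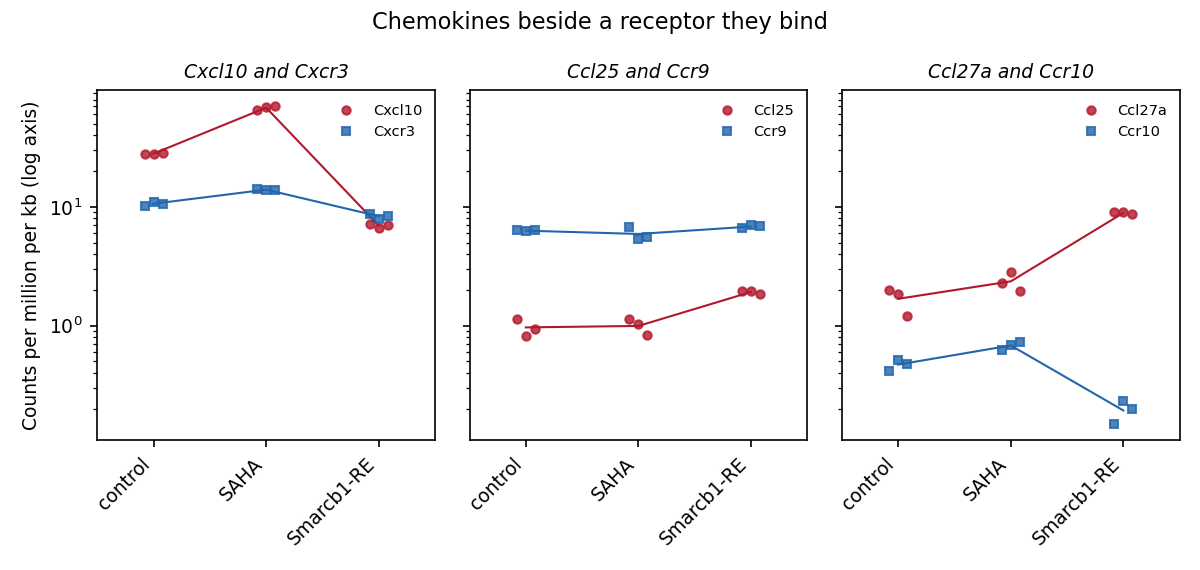
Levels in CPM per kb of exon on a log axis for chemokines (red circles) and receptors they bind (blue squares) in 3 libraries per group, with lines through the group means. Per kb, though not in CPM, Cxcl10 falls below Cxcr3 in Smarcb1-RE (6.95 against 8.33), and Ccl27a and Ccr10 move apart there.

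Genes that act downstream of or around chemokine receptors were examined as a list of 54, of which 43 were tested. In SAHA 18 were higher and 9 lower, and in Smarcb1-RE 20 were higher and 19 lower, with medians of 0.07 and 0.02 against 0.00 and 0.01 over all genes. The counts of this list and its groups stand beside all-gene shares of 32.6% higher and 34.3% lower in SAHA, and 39.2% higher and 38.6% lower in Smarcb1-RE, and nothing particular to a group is read from them. Ackr2, Rgs3 and Mme passed the filter only through Smarcb1-RE, where they were highest. Desensitization genes encode kinases that phosphorylate receptors, arrestins that internalize them and proteins that quench their G proteins. They comprised 10 tested genes, of which 8 were higher and 2 lower in Smarcb1-RE (77.8% of all genes called) and 3 higher and 3 lower in SAHA (66.9% of all genes called). The receptor kinase Grk5 rose from 15.6 ± 0.875 CPM in control to 86.3 ± 1.43 CPM in Smarcb1-RE (log2 fold change 2.47, standard error 0.05, adjusted p = 1.3e-12) and was at 16.4 ± 0.609 CPM in SAHA. Arrb1, a β-arrestin, rose by 1.48 in Smarcb1-RE and by 0.69 in SAHA. Rgs16, an accelerator of G protein shut-off, rose in both, by 1.24 in SAHA and 1.10 in Smarcb1-RE, and Rgs2 did so by 1.60 and 1.34. The kinase Grk2 was lower in both, at -0.66 and -0.48.

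Of 8 G protein subunit genes, 3 were higher and 3 lower in SAHA, and 1 was higher and 5 lower in Smarcb1-RE. Gnai1, an inhibitory α subunit, fell from 25.1 ± 1.34 CPM in control to 2.11 ± 0.377 CPM in Smarcb1-RE (log2 fold change -3.57, standard error 0.10, adjusted p = 1.34e-11) and rose to 32.6 ± 0.777 CPM in SAHA (0.38, adjusted p = 0.00028). Gnai2, the more abundant subunit at 263 ± 8.28 CPM in control, fell by 0.33 in Smarcb1-RE and was not called in SAHA (0.07, adjusted p = 0.227). Among 19 tested effectors, 12 were higher and 2 lower in SAHA, and 9 were higher and 9 lower in Smarcb1-RE. Rasgrp2, an exchange factor for Rap1, rose from 0.252 ± 0.128 CPM in control to 2.30 ± 0.747 CPM in SAHA and 0.822 ± 0.259 CPM in Smarcb1-RE. Rap1a and Rac2 were higher in SAHA (0.43 and 0.26) and lower in Smarcb1-RE (-0.53 and -0.27), while Pik3cd, Vav1 and Ptk2b were higher in both. Of the 4 genes that cleave chemokines, 1 was lower in SAHA and 3 were lower in Smarcb1-RE, among them Dpp4, a peptidase that trims chemokines such as Cxcl10, by -2.24 (standard error 0.21, adjusted p = 4.86e-07). A further 6 listed genes were Ackr1, Ackr2, Ackr3 and Ackr4, atypical receptors that bind chemokines without G protein signalling, and Ccrl2 and Cmklr1. Of these, Ackr2 and Ccrl2 were tested and both were higher in Smarcb1-RE. Ackr2 had no count in control or SAHA and 0.560 to 0.796 CPM in Smarcb1-RE, at least 5.63-fold above the floor of the controls. The platelet chemokines Pf4 and Ppbp, which the symbol rule leaves out, had no count.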

How the data were processed

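Bulk RNA of 9 T15 libraries (3 control, 3 SAHA, 3 Smarcb1-RE) was analysed, grouped by the labels. The authors deposited 1 table of estimated counts per gene, not normalized and not pooled, of which 52.4% of values above 0 were not whole. Per the labels' processing notes, Salmon 0.14.1, FastQC 0.11.8, MultiQC 1.7, DESeq2 1.22.2 and build GRCm38 were used. Quantification to annotated transcripts splits reads among near-identical genes, and its strand setting is not given in the sources used here. Here, genes were named by GENCODE M21 (99.5% of the listed genes matched). Counts were rounded, genes kept by a minimum count of 10 (filterByExpr), scaled by TMM and fitted in 1 model of all libraries with edgeR 4.0.16 in R 4.3.3 (quasi-likelihood test, two-sided, Benjamini-Hochberg adjustment over 13697 genes, called at adjusted p below 0.05). The standard error is the log2 fold change divided by the root of the F value. An exact permutation test of 3 against 3 libraries cannot go below p = 0.1, so none is given. On simulated counts, 83.1% of genes changed by 1 on the log2 scale were recovered in SAHA against control, over 12915 genes, and 5.325% of all calls, with changes of 1 and 2 simulated together, were false. In that simulation only 89 tested genes were changed by 1 and 92 by 2. In the data 66.9% of genes were called in SAHA against control, so the simulated shares need not hold there. Totals of 20900477 to 24941494 counts per library set the precision. Alternatives were DESeq2 1.42.0, median-ratio factors, library totals only, no filter, a minimum of 10 counts in each library, a fit per pair of groups, a replicate block, unrounded counts, a minimum absolute log2 fold change of 1, adjusted p below 0.01, leaving out each library and, added after seeing the data, summed copies of Ccl27a.

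Of 62 annotated members described here, 60 were in the table, and Ccl21b on chromosome 4 and on scaffold JH584293.1 were not analysed here. The members, gene lists and tests were chosen with earlier results of these data known. All of these members are accounted for. Results that concern withheld genes are not reported here, and such genes are left out of the counts and lists, though they stayed in the fit. Values per library are given for members called with an absolute log2 fold change of at least 1 and for the 3 chemokines and 3 receptors with the highest level per kb, and others by range or count, or in full where a result turned on single libraries. Promoter windows of 250 bases came from RefSeq (GRCm38.p6; the 50 bases after the start were left out) for 10 of the 16 tested members, with none read for Ccl27 on JH584293.1, Ccl4, Ccl5, Ccr10, Ccr7 and Cxcr5.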

Additional observations from a re-analysis of the deposited data

How the results depend on the processing

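The 895 combinations of a tested member, a comparison and an alternative kept direction and side of the threshold in 855, lost a call in 22, gained one in 14 and turned direction in 4. The reversals were Ccl25 in SAHA without control replicate 2 or SAHA replicate 1 (-0.063 and -0.0632, not called in either form), Ccr2 in Smarcb1-RE (0.032) with library totals only, and Ccl27 on JH584293.1 in Smarcb1-RE against SAHA without Smarcb1-RE replicate 3 (-0.21, the others up to 1.12). Requiring an absolute log2 fold change of 1 left 6 higher in SAHA, 3 lower in Smarcb1-RE, and 1 higher in Smarcb1-RE against SAHA. Without a filter on low counts, 1 member was called lower in SAHA and 8 higher in Smarcb1-RE against SAHA, since more members were tested. As single libraries were left out, 9 to 10 members were higher and 0 to 1 lower in SAHA (the 1 was Ccr9, without SAHA replicate 1), 7 to 9 higher and 5 to 7 lower in Smarcb1-RE, and 4 to 6 higher and 8 lower in Smarcb1-RE against SAHA. Same-numbered libraries did not deviate together (correlations -0.07 to 0.04 over 9 pairs), which cannot show whether they shared a day or culture. With a replicate block the counts were 10 higher and 0 lower in SAHA, 7 and 6 in Smarcb1-RE, and 5 and 8 in Smarcb1-RE against SAHA. With library totals only, the all-gene median in Smarcb1-RE against control went from 0.01 to 0.17. A minimum of 10 counts in each library gave no value for Ccl4, Ccr10, Xcr1 and Ccl27 on JH584293.1, and separate fits none for Ccl4 in Smarcb1-RE and Xcr1 in SAHA, both against control. Depth limits statements on the 44 untested members, of which 35 had at most 3 counts in each library.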
